A study of Mus musculus with 6 samples.

Results

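The 10 genes described here are 6 transcription factors that drive epithelial-mesenchymal transition (EMT), Snai1, Snai2, Twist1, Twist2, Zeb1 and Zeb2, and 4 regulators that keep cells epithelial, Esrp1, Esrp2, Grhl2 and Ovol1. They were chosen by name, and all 10 were among the 13912 genes of the deposited table. RNA was sequenced from 3 libraries of tumour cells and from 3 libraries of cultured cells, all of 4T1-Luc2-RFP, a BALB/c mouse mammary carcinoma line carrying genes for luciferase and for a red fluorescent protein. The tumour libraries came from cells sorted by fluorescence from mammary gland tumours grown after intraductal injection. The cultured libraries came from the same line that had not been injected. Labels of all 3 tumour libraries carry the word Right, without saying what it names. The labels name no sort for the cultured cells, no marker for the sort of the tumour cells, no age and no number of animals or cultures. P-values thus measure how far these libraries vary, and that variation may be technical.

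In EMT an epithelial cell loosens its junctions and takes on features of a migrating mesenchymal cell. SNAI and ZEB proteins are zinc finger repressors that bind E-boxes, short DNA motifs, in genes such as Cdh1, the gene of E-cadherin, while TWIST proteins are basic helix-loop-helix factors. GRHL2 and OVOL1 are transcription factors that sustain junction genes or repress Zeb1, and ESRP1 and ESRP2 are RNA-binding proteins that set the epithelial splice forms of their targets. The same EMT factors are also expressed by normal cells of a tumour, Zeb2 by myeloid cells and Snai2, Twist1, Twist2 and Zeb1 by fibroblasts. The 4T1 line is known for metastasis from the mammary gland while keeping E-cadherin.

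Total reads were 35448588 to 41469090 per library, and levels are given as CPM, reads scaled to an equal library total. Of 8 carcinoma epithelial markers, 2 were lower in the tumour libraries, Krt7 and Cdh1, and 6 did not pass the test. Their summed level was 2660.5 to 3111 CPM in tumour libraries and 2696 to 3560 CPM in cultured libraries, so the groups overlapped. Markers of other cells were present in the sorted tumour libraries. The 14 fibroblast markers summed to 7320 to 9352 CPM in tumour libraries and 24.0 to 51.8 CPM in cultured libraries, and the 16 macrophage and monocyte markers to 7029 to 10495 CPM in tumour libraries and 27.9 to 38.7 CPM in cultured libraries. The 9 neutrophil markers measured of 10 summed to 1336 to 3947 CPM in tumour libraries and 85.5 to 100.5 CPM in cultured libraries. Mmp9 alone had 88.8, 85.5 and 100.3 CPM in cultured libraries 1, 2 and 3, nearly all of that sum. It also had 1113 of the 1336 CPM in tumour library 2. Pdgfra likewise made most of the cultured fibroblast sum, with 25.3, 48.2 and 21.9 CPM in cultured libraries 1, 2 and 3. The 8 pericyte and smooth muscle markers summed to 261.5 to 312 CPM in tumour libraries and 0.563 to 1.06 CPM in cultured libraries, and the 10 endothelial markers to 255 to 296 CPM in tumour libraries and 58.7 to 76.5 CPM in cultured libraries. The 4 lymphocyte markers measured of 12 summed to 5.61 to 7.86 CPM in tumour libraries and at most 0.0221 CPM in cultured libraries. In culture the fibroblast markers Fbln1 and Dpt, the pericyte markers Rgs5, Kcnj8 and Abcc9, the endothelial markers Emcn and Cldn5, the neutrophil markers Retnlg and Ngp and the lymphocyte markers Cd4, Cd8a and Klrb1c had 0 reads. Genes of the table had at least 61 reads over the libraries. All pericyte and lymphocyte markers measured had fewer in culture. So did the fibroblast markers but Col1a1 and Pdgfra, the neutrophil markers but Mmp9, and most macrophage and endothelial markers. These markers needed their tumour reads to enter the table, so the contrast of the sums is a description. In bulk RNA, fewer cells of a type and less RNA per cell cannot be told apart.

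All 6 EMT factors were higher in tumour libraries and all 4 epithelial regulators were lower. The test was limma's over the whole table, with Benjamini-Hochberg adjustment at 0.05. No gene of the table had under 61 reads over the libraries. With 0 and 2 cultured reads, Snai2 and Twist2 could thus only be higher, and their calls are a description. Zeb1, with 48 cultured reads, was also kept through its tumour reads. Without tumour library 1, or without tumour library 3, 2 of the 4 epithelial regulators passed, and Ovol1 passed in 6 of 16 alternative settings. Of all genes tested, 29.5% were called higher and 18.8% lower, 48.2% in all, so a single call is common in this comparison. That balance depends on scaling, with 25.5% higher and 27.6% lower after centring each library on its median and 21.5% higher and 39.6% lower after quantile normalization. In each of the 10 genes the tumour and cultured libraries did not overlap, which was the case for 59.8% of all genes (34.6% with tumour libraries above, 25.2% below). The 6 EMT factors divide by their cultured level. Snai1, Twist1 and Zeb2 were well expressed in culture and rose by log2 changes of 0.96 to 1.86, while Snai2, Twist2 and Zeb1 were near 0 in culture and rose by 4.98 to 6.92. The median log2 change was 3.42 for the EMT factors, -1.18 for the epithelial regulators and 0.08 for all genes. The size of the rises near 0 reads depends on the 0.5 reads added. With 1 CPM added instead, the log2 changes of Snai2 and Twist2 were 1.302 and 1.79, beside 1.37 for Snai1 and 1.84 for Zeb2, and the median of the EMT factors was 1.58.

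**Figure D1:**
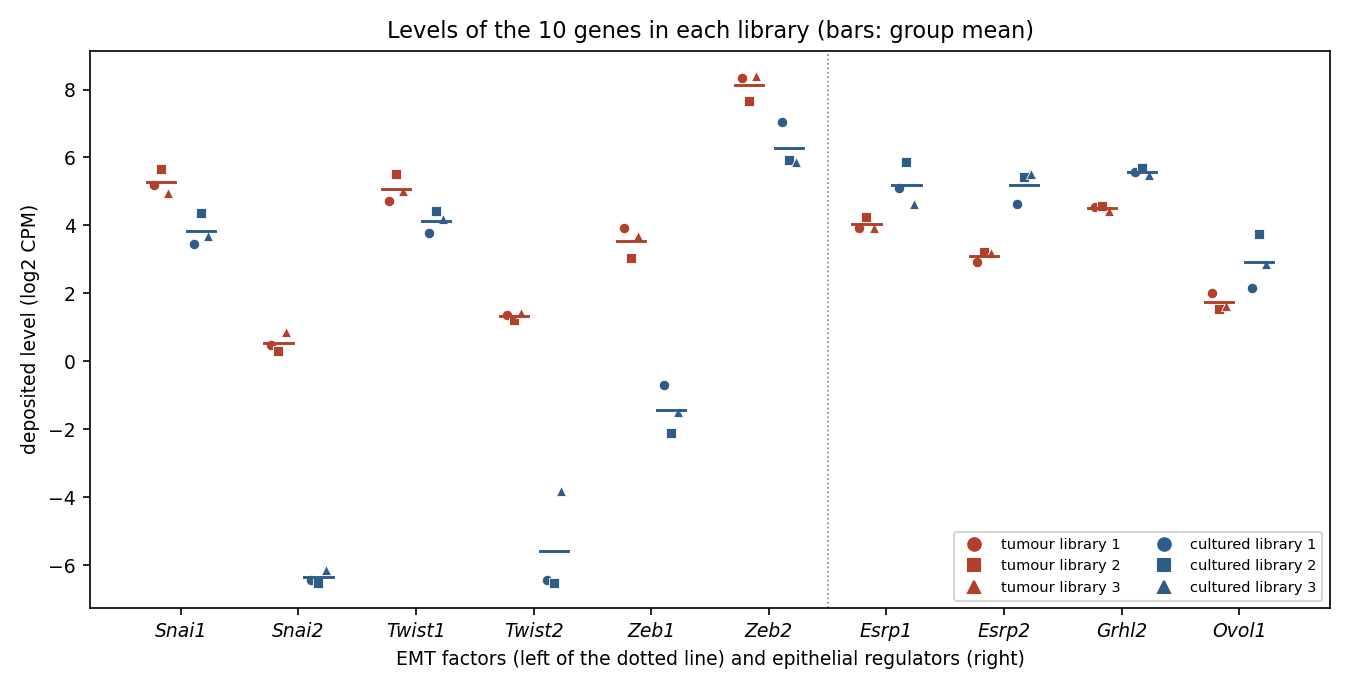
Deposited level of each of the 10 genes in log2 CPM (vertical axis) in the 3 tumour libraries (red) and the 3 cultured libraries (blue), with a bar at each group mean. The EMT factors left of the dotted line sit higher in tumour libraries and the epithelial regulators right of it sit lower, with the widest gaps for Snai2, Twist2 and Zeb1.

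Promoters are shown because SNAI and ZEB proteins bind the E-box CAGGTG, which reads CACCTG on the other strand. Both forms were searched as the same motif, without overlaps between copies. Each window runs from 250 bases before to 50 bases after a start site (RefSeq, GRCm38.p6), and capitals mark the motif. Snai1 is the EMT factor with a copy. Crb3, Pard6b and Ocln are junction and polarity genes that were lower in tumour libraries. Epcam is an epithelial adhesion gene that did not pass the test. Windows with most copies were taken where a gene had several. They lie at chr2:167537945-167538244 (plus strand) for Snai1, chr17:57061951-57062250 (plus) for Crb3, chr2:168080754-168081053 (plus) for Pard6b, chr13:100552449-100552748 (minus) for Ocln and chr17:87635729-87636028 (plus) for Epcam.
Snai1: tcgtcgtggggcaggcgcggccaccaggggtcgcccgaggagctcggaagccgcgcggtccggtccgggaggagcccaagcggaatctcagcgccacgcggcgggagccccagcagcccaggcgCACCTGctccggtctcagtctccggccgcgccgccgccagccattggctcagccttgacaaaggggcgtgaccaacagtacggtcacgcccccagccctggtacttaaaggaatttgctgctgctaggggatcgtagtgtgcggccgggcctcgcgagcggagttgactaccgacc
Crb3: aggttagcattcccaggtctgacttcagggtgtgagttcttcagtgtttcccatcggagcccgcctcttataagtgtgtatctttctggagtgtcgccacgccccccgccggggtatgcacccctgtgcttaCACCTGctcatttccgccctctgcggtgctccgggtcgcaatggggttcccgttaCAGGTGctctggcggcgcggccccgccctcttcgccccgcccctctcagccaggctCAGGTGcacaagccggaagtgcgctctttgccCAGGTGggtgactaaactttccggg
Pard6b: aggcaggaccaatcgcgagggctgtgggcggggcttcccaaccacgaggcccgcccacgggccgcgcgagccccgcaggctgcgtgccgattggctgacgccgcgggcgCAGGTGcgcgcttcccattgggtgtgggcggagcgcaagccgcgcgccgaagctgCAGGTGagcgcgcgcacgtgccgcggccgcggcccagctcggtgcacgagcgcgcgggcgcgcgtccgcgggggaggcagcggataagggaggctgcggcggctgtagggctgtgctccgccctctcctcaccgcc
Ocln: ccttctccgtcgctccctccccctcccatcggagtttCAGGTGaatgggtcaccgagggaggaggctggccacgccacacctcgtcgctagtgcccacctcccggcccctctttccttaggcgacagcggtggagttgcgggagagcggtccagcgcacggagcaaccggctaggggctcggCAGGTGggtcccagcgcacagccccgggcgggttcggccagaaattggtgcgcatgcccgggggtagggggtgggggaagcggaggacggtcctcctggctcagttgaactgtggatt
Epcam: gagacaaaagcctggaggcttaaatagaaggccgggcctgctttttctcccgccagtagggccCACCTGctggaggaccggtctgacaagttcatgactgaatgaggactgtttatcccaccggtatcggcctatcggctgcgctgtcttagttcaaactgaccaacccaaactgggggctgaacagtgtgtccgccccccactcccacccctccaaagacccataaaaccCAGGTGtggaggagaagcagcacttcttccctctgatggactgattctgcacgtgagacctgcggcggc
Snai1 holds 1 copy, Crb3 holds 4, and Pard6b, Ocln and Epcam hold 2 each. Of the 4 EMT factors with a window in the table, Snai1, Twist1, Twist2 and Zeb2, the motif was found in Snai1. A match is a description of these letters and not a measured binding site.

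Snai1, the zinc finger repressor Snail, lies at chr2:167538195-167542814 (GRCm38). Its level was 36.3, 50.3 and 31.2 CPM in tumour libraries 1, 2 and 3, against 10.9, 20.7 and 12.8 CPM in cultured libraries 1, 2 and 3. Every tumour library was above every cultured library, and library 2 was the highest of its group in both. The log2 change was 1.43 (SE 0.29, limma adjusted p = 0.00506), which is 2.65-fold in mean CPM. Snai2, the related repressor Slug, lies at chr16:14705852-14709385 and is known as a factor of basal mammary cells. It had 51, 50 and 69 reads in tumour libraries and 0 reads in each cultured library. At 1.48 ± 0.306 CPM in tumour libraries (SD, n = 3) it was at least 60.3-fold higher than in culture, taking a floor of 3 reads over the cultured group. This bound covers counting error, and reads are not independent molecules.

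Twist1, a basic helix-loop-helix factor at chr12:33957671-33959829, stood at 26.1, 45.8 and 32.6 CPM in tumour libraries, against 13.7, 21.5 and 18.2 CPM in cultured libraries. It had the smallest rise of the 6, 0.96 on the log2 scale (SE 0.27, limma adjusted p = 0.0197). This call was lost without tumour library 2 (log2 change 0.74, limma adjusted p = 0.0719), without tumour library 3 (0.99, adjusted p = 0.0607) and without cultured library 1 (0.78, adjusted p = 0.058). Centring each library on its median gave 0.73 (limma adjusted p = 0.0509) and quantile normalization 0.69 (adjusted p = 0.0514). Twist2, its close relative at chr1:91801461-91848028, had 95, 95 and 102 reads in tumour libraries and 0, 0 and 2 reads in cultured libraries. It was at 2.54 ± 0.18 CPM in tumour libraries (SD, n = 3), and the ratio over its 2 cultured reads was 155 (95% counting interval 42.6 to 1290). Genes with under 61 reads over the 6 libraries are not in the table. Snai2 and Twist2 thus entered it through their tumour reads and could only be higher there. Zeb1, with 48 cultured reads, also needed its tumour reads to reach 61.

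Zeb1, a zinc finger and homeodomain repressor on chromosome 18, had 557, 337 and 489 reads in tumour libraries and 26, 10 and 12 reads in cultured libraries. In CPM these were 15.1, 8.29 and 12.9 in tumour libraries, against 0.61, 0.221 and 0.345 in cultured libraries. The log2 change was 4.98 (SE 0.44, limma adjusted p = 5.38e-05), with the lowest tumour value in library 2. Zeb2, the related repressor at chr2:44983632-45117395, had the most reads of the 10 genes in both groups. It stood at 326, 204 and 337 CPM in tumour libraries, against 133, 60.6 and 58.1 CPM in cultured libraries. The log2 change was 1.86 (SE 0.35, limma adjusted p = 0.00345), and tumour library 2 was again the lowest of its group. The span of the antisense gene Zeb2os covers 758 of 19942 exon bases of Zeb2. Zeb2os was at 5.86 ± 0.932 CPM in tumour libraries and 0.762 ± 0.419 CPM in cultured libraries (SD, n = 3 each). Overlaps here and below were taken with the whole span of the other gene, introns included. The labels do not say whether counting used the strand, so reads from any shared exons cannot be told apart.

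The EMT factors did not move together among the tumour libraries. Tumour library 2 differed from the mean of tumour libraries 1 and 3 by log2 differences of 0.58 for Snai1 and 0.65 for Twist1, but by -0.70 for Zeb2 and -0.75 for Zeb1. The same difference was -0.36 for Snai2 and -0.17 for Twist2, and 0.30, 0.16, 0.08 and -0.27 for Esrp1, Esrp2, Grhl2 and Ovol1. Medians of the marker lists for this difference were -2.98 for neutrophils, -0.57 for macrophages and monocytes, -0.46 for endothelial cells, -0.36 for fibroblasts, -0.30 for pericytes and -0.20 for lymphocytes. They were -0.03 for the carcinoma epithelial markers and 0.01 for all genes. The part of these cells in the levels of Zeb1 and Zeb2 was not tested. In culture, where these marker lists were low, library 1 was the highest for Zeb1 and Zeb2 and the lowest for Snai1 and Twist1.

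Of the epithelial regulators, Esrp2 had the largest fall. This splicing regulator at chr8:106130319-106136974 stood at 7.57, 9.23 and 9.07 CPM in tumour libraries, against 24.7, 42.6 and 45.9 CPM in cultured libraries. The log2 change was -2.08 (SE 0.27, limma adjusted p = 0.000478), and the groups were far apart. Its partner Esrp1, at chr4:11331933-11386783, stood at 15.3, 18.9 and 15.3 CPM in tumour libraries, against 34.6, 58.2 and 24.8 CPM in cultured libraries. The cultured values spread widely, and the log2 change was -1.16 (SE 0.31, limma adjusted p = 0.0164). The call for Esrp1 was lost without tumour library 1 (log2 change -1.11, limma adjusted p = 0.057) and without tumour library 3 (-1.11, adjusted p = 0.06). Exons of Esrp2 overlap the spans of Nfatc3 and 1810019D21Rik on the other strand, by 219 and 708 of 4340 bases. Nfatc3 was at 119 ± 7.5 CPM in tumour libraries and 217.5 ± 6.78 CPM in cultured libraries (SD, n = 3 each), and 1810019D21Rik at 0.459 ± 0.00975 CPM in tumour libraries and 1.4 ± 0.239 CPM in cultured libraries (SD, n = 3 each). Exons of Twist2, Esrp1, Grhl2, Ovol1 and Zeb1 also overlap the spans of annotated genes on the other strand that were not in the table. These overlaps were 1477 bases for Twist2, 1908 for Esrp1 and 1233 for the pseudogene beside Ovol1.

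Grhl2, a grainyhead factor at chr15:37233036-37363569 that activates junction genes, had the tightest values of the 4. It stood at 23.2, 23.7 and 21.6 CPM in tumour libraries, against 47.3, 51.2 and 44.4 CPM in cultured libraries. The tumour level was 0.479 of the cultured level, and the log2 change was -1.06 (SE 0.15, limma adjusted p = 0.000752). Ovol1, a zinc finger repressor at chr19:5549136-5560646, was the lowest of the epithelial regulators and the least certain. It stood at 4.07, 2.93 and 3.09 CPM in tumour libraries, against 4.46, 13.5 and 7.26 CPM in cultured libraries. Tumour library 1 lay just under cultured library 1, and the log2 change was -1.19 (SE 0.42, limma adjusted p = 0.0476). Leaving out any of the libraries but cultured library 1 ended this call, with limma adjusted p = 0.0809, 0.135 and 0.135 without tumour library 1, 2 and 3 and 0.0936 and 0.0612 without cultured library 2 and 3. Without cultured library 2, which had the highest value, the log2 change was -0.77, and after quantile normalization it was -2.71 (limma adjusted p = 0.000373).

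Scaling the libraries to equal carcinoma epithelial markers set the 10 genes against the epithelial content of each library. The falls were then -1.01 for Esrp1, -1.93 for Esrp2 and -0.91 for Grhl2 in log2 units (limma adjusted p = 0.0148, 0.00114 and 0.00264), and that of Ovol1 was -1.04 (limma adjusted p = 0.0727). The rises were 1.58 for Snai1, 1.11 for Twist1, 2.01 for Zeb2 and 5.13 for Zeb1 on the same scale. The markers used include Cdh1 and Krt7, which were themselves lower. The median log2 change of all genes was 0.08 as deposited, 0.23 with this scaling, -0.14 after centring on the median and -0.32 after quantile normalization. None of these scalings turned the direction of a gene among the 10.

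**Figure D2:**
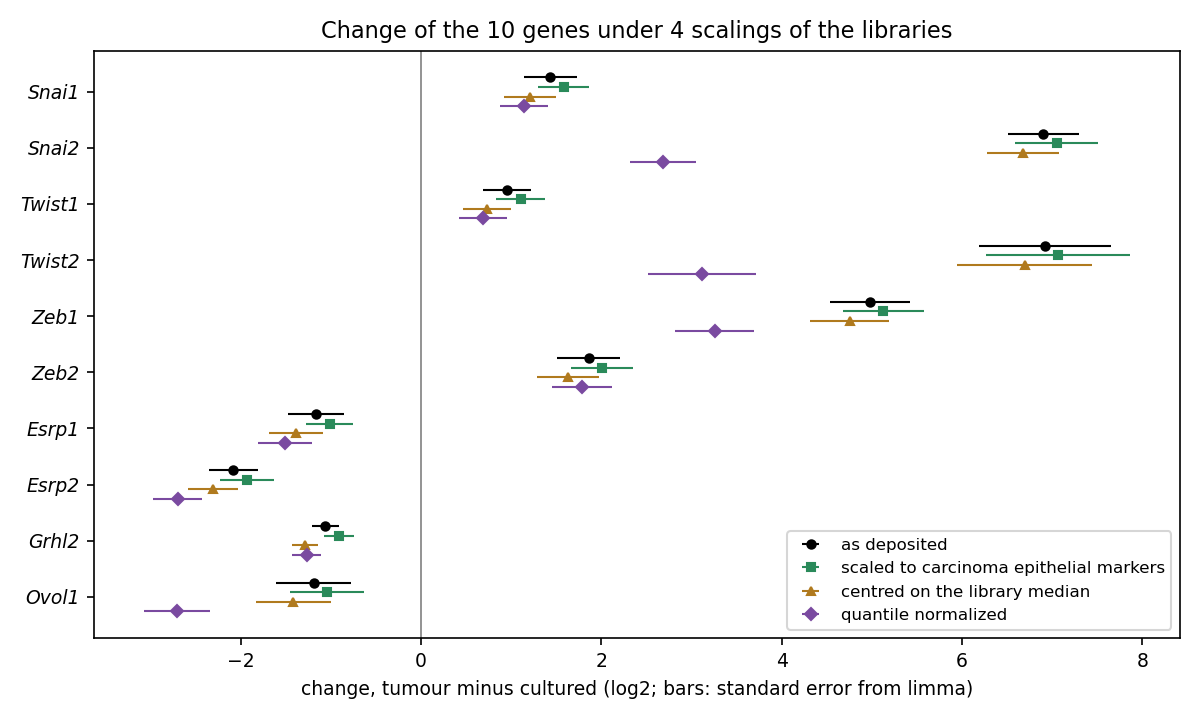
Log2 change, tumour minus cultured (horizontal axis), of each of the 10 genes under 4 scalings of the libraries, with bars for limma's standard error. The signs are the same under all 4, and the distance from 0 of Snai2, Twist2, Zeb1 and Ovol1 depends most on quantile normalization.

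Levels per kilobase of exon give a rough comparison between genes. The length joins the exons of all annotated transcripts, 19942 bases from 29 transcripts for Zeb2 and 10266 from 12 for Zeb1. Snai1 and Twist1 have 1 transcript each, of 1621 and 1628 bases. Where the transcripts present are shorter than the joined length, this level is too low. The order of the genes thus rests on the length used. In tumour libraries the order was Snai1 with 24.2 ± 6.12 CPM per kilobase, Twist1 with 21.4 ± 6.16 and Zeb2 with 14.5 ± 3.71 (SD, n = 3), and neighbours in this order overlapped. Grhl2 with 2.65 ± 0.128 CPM per kilobase, Esrp1 with 2.62 ± 0.329 and Esrp2 with 1.99 ± 0.212 followed (SD, n = 3), Grhl2 not overlapping Zeb2 and Esrp2 not overlapping Esrp1. Zeb1 with 1.18 ± 0.339, Ovol1 with 0.964 ± 0.177, Twist2 with 0.799 ± 0.0567 and Snai2 with 0.731 ± 0.151 CPM per kilobase came last and overlapped from one to the next (SD, n = 3). In cultured libraries the same scale gave 10.9 ± 2.4 for Twist1, 9.13 ± 3.23 for Snai1, 8.69 ± 2.63 for Esrp2, 6.21 ± 2.73 for Esrp1, 5.53 ± 0.396 for Grhl2, 4.21 ± 2.13 for Zeb2 and 2.41 ± 1.33 CPM per kilobase for Ovol1 (SD, n = 3). Each of these cultured neighbours overlapped. Zeb1 stood at 0.0382 ± 0.0194 CPM per kilobase in culture (SD, n = 3), below all of them. In tumour libraries Snai1, Twist1 and Zeb2 lay above each epithelial regulator. In cultured libraries Snai1 and Twist1 lay above Grhl2 and Ovol1 but overlapped Esrp1 and Esrp2.

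Within a library, the ratio of related genes does not depend on scaling. The ratio itself rests on the joined exon lengths, while its difference between groups does not. The log2 ratio of Zeb1 over Zeb2 per exon length was -3.62 ± 0.14 in tumour libraries and -6.74 ± 0.348 in cultured libraries (SD, n = 3 each), a difference of 3.12. That of Snai2 over Snai1 was -5.03 ± 0.626 in tumour libraries and -10.5 ± 0.605 in cultured libraries (SD, n = 3 each), and that of Twist2 over Twist1 was -4.70 ± 0.491 in tumour libraries and -10.66 ± 1.53 in cultured libraries (SD, n = 3 each). These cultured ratios rest on 0 to 2 reads and on the 0.5 reads added to each count. With 1 CPM added instead, the difference for Snai2 over Snai1 was -0.07, the opposite sign. Esrp2 over Esrp1 was -0.40 ± 0.155 in tumour libraries and 0.52 ± 0.784 in cultured libraries (SD, n = 3 each), a difference of -0.92. The filter on reads fixed the separation of the groups for the Snai2 and Twist2 ratios, which are given as a description. Zeb1 also reached the minimum of 61 reads only with its tumour reads. For Zeb1 over Zeb2 and Esrp2 over Esrp1 the groups did not overlap either. The exact permutation test over libraries, two-sided, gave p = 0.1 for both, which is the smallest value 3 against 3 can give, and 0.1 after adjustment over the 4 pairs.

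**Figure D3:**
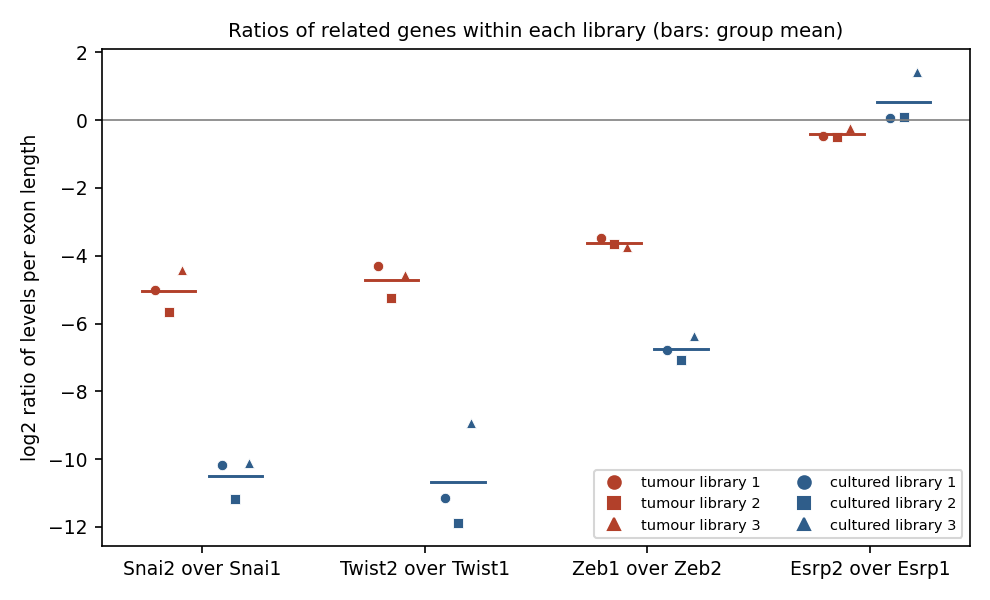
Log2 ratio of levels per exon length (vertical axis) for 4 pairs of related genes in the 3 tumour libraries (red) and the 3 cultured libraries (blue), with bars at group means. In the first 3 pairs the rarer gene is closer to its relative in tumour libraries, and Esrp2 lies below Esrp1 in tumour libraries and above it in cultured libraries.

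Of 10 listed relatives of these families, 6 were measured, 2 fell and 0 rose, beside 18.8% and 29.5% of all genes. Snai3, the third gene of the Snail family, fell where Snai1 and Snai2 rose. It stood at 0.407, 0.345 and 0.448 CPM in tumour libraries, against 11.1, 11 and 6.06 CPM in cultured libraries. The log2 change was -4.46 (SE 0.35, limma adjusted p = 2.58e-05), further from 0 than that of any epithelial regulator among the 10. With 46 tumour reads, Snai3 reached the minimum of 61 reads only with its cultured reads. All 1628 exon bases of Snai3 lie inside the span of Gm20388, annotated on the other strand and not in the table. Whether they meet exons of Gm20388, so that reads could be mixed, was not tested. Grhl1, a relative of Grhl2, stood at 1.65 ± 0.677 CPM in tumour libraries and 6.76 ± 4.22 CPM in cultured libraries (SD, n = 3 each) and fell by 1.95 on the log2 scale (limma adjusted p = 0.0169). Ovol2, Tfcp2, Tfcp2l1 and Ubp1 did not pass.

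Junction and epithelial genes, listed by name as possible targets of the EMT factors, fell in part. Of 29 junction and epithelial target genes measured, 13 fell, 3 rose and 13 did not pass, with a median log2 change of -0.44. Of all genes, 18.8% fell and 29.5% rose. Cdh1 stood at 240, 202 and 252 CPM in tumour libraries, against 423, 442 and 439 CPM in cultured libraries, and fell by 0.91 on the log2 scale (SE 0.15, limma adjusted p = 0.00163). E-cadherin transcript thus fell to 0.533 of its cultured level. Crb3, an apical polarity gene and a known ZEB1 target in human cells, had the largest fall, with 0.597, 0.615 and 0.659 CPM in tumour libraries, against 4.93, 10.1 and 2.41 CPM in cultured libraries (log2 change -2.96, limma adjusted p = 0.00216). The polarity gene Pard6b followed with a log2 change of -2.29, the desmosome gene Dsp with -1.95 and the tight junction genes Ocln, Marveld3 and Tjp1 with -1.79, -1.61 and -1.29. Krt14, a basal keratin, and Cdh3, the P-cadherin gene, rose by log2 changes of 2.13 and 2.47, and Jup, the plakoglobin gene, rose by 1.01. Epcam stood at 113 ± 11.1 CPM in tumour libraries and 100.1 ± 14.6 CPM in cultured libraries, Krt8 at 859.5 ± 121 CPM in tumour libraries and 528 ± 311 CPM in cultured libraries, and Krt18 at 1055 ± 120 CPM in tumour libraries and 882 ± 139 CPM in cultured libraries (SD, n = 3 each). None of these 3 passed the test.

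The E-box shown above was common in this list. Of 20 junction and epithelial target genes with a promoter window, 16 held it, against 2176 of 10510 measured genes with a window (20.7%). A gene was counted if any of its windows held the motif. The list was drawn up as possible targets of the EMT factors, and its share may reflect that choice. These shares come from sequence alone and are no result about the libraries. Over all 32851 windows of the RefSeq table the share was 20.2%. Among the 16 with the motif 7 fell, Cldn3, Ocln, Crb3, Dsp, Krt7, Marveld2 and Pard6b, and 9 did not pass. Among the 4 without it, Tjp1 fell, Jup and Krt14 rose and Spint1 did not pass. Of 11 mesenchymal target genes with a window, 1 held the motif. The motif was also found in 4 of 8 neutrophil markers and in 2 of 5 other epithelial transcription factors with a window. No window from the table was used for Cdh1 or the epithelial regulators.

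Mesenchymal target genes rose in 19 of 20 cases and fell in 0, beside 29.5% and 18.8% of all genes. Their median log2 change was 6.27 (5.77 with the gene at 0 cultured reads set to its bound). Cdh2, Acta2, Lox, Cdh11, Col3a1, Mmp2 and Col1a2 had 0 to 58 cultured reads. As the table's minimum was 61 reads, these genes entered it through their tumour reads. The largest changes were those of the collagen genes Col3a1, Col1a2 and Col1a1 (12.91, 11.94 and 10.88), the smooth muscle actin gene Acta2 (11.32) and Lox, a collagen cross-linking enzyme (11.11). Postn, Mmp2 and Tagln had 8.15, 8.02 and 7.54. Of the 20 genes, 4 also stand in the marker lists of fibroblasts or pericytes, whose summed levels are given above. Vim, the intermediate filament gene, and Fn1, the fibronectin gene, were abundant in culture too. Vim stood at 4716 ± 331 CPM in tumour libraries and 1702 ± 1034 CPM in cultured libraries, and Fn1 at 13070 ± 704 CPM in tumour libraries and 4896 ± 1236 CPM in cultured libraries (SD, n = 3 each). Cdh2, the N-cadherin gene, had 0 cultured reads and was at 1.29 ± 0.159 CPM in tumour libraries (SD, n = 3), at least 52.8-fold higher. How much of these levels came from fibroblasts was not tested.

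**Figure D4:**
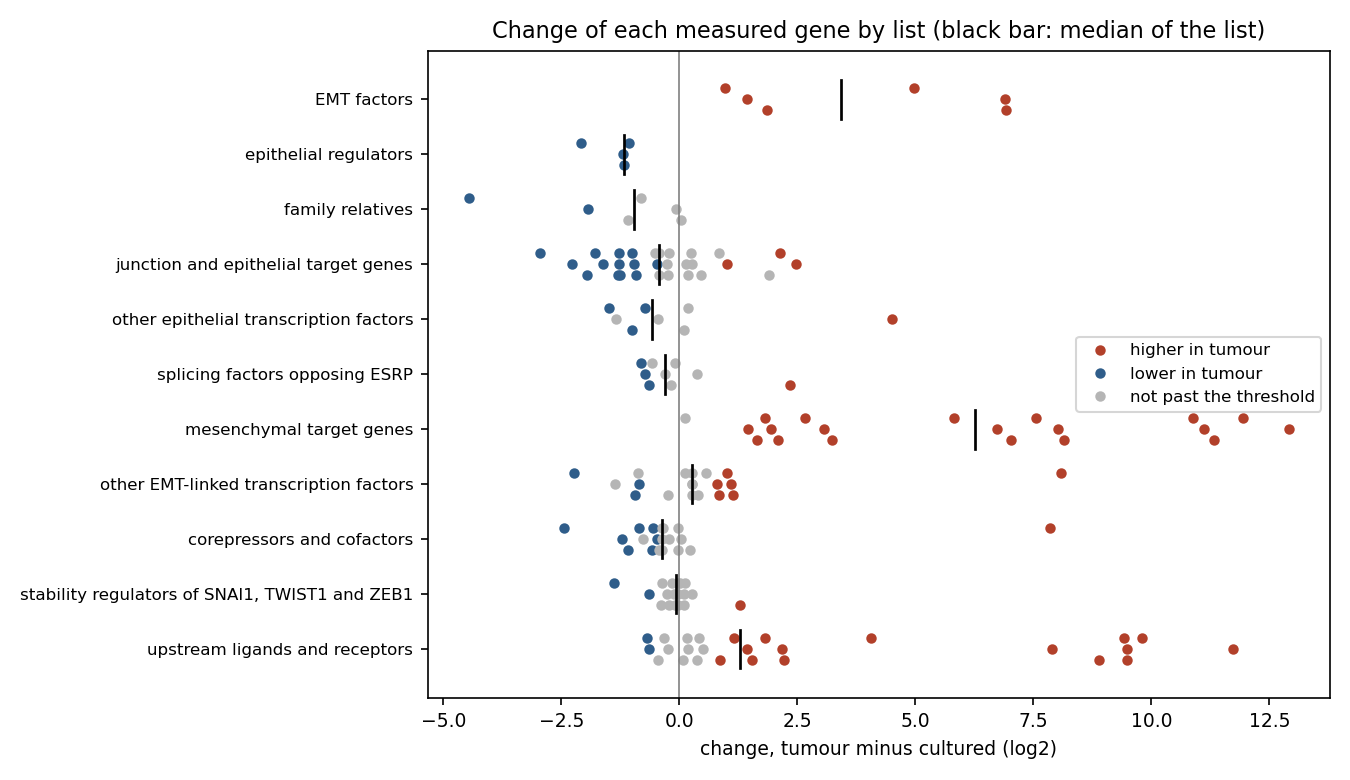
Log2 change, tumour minus cultured (horizontal axis), of each measured gene in 11 lists, coloured by limma's call at an adjusted p of 0.05, with a black bar at each list's median. The EMT factors and mesenchymal target genes lie right of 0, the epithelial regulators lie left, and the median of the stability regulators lies at -0.07.

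Among 19 other EMT-linked transcription factors measured, 6 rose and 3 fell, with a median log2 change of 0.27. These counts lie near the shares of all genes, 29.5% higher and 18.8% lower. Among those that rose, Prrx1 had 17 cultured reads and could only be higher, given the minimum of 61 reads. Prrx1, a homeobox factor of mesenchyme, stood at 33.6, 28 and 34.7 CPM in tumour libraries, against 0.0704, 0.265 and 0.0574 CPM in cultured libraries (log2 change 8.09, limma adjusted p = 9.68e-06). Foxc2 and Runx1 rose by 1.14 and 1.09 on the log2 scale, and Foxc1, Tcf4 and Sox9 also passed. Fosl1, an AP-1 subunit, fell by 2.24, and Yap1 fell by 0.95. Leaving out tumour library 2 or tumour library 3 left 3 risen genes. Among 8 other epithelial transcription factors, 3 fell and 1 rose. Elf3 had a log2 change of -1.49, and Klf5 was at 33.9 ± 5.29 CPM in tumour libraries and 69.3 ± 18.5 CPM in cultured libraries (SD, n = 3 each). Klf4, a factor of epithelial barrier genes that is also an immediate response gene, stood at 272, 310 and 356 CPM in tumour libraries, against 8.91, 16.8 and 17.4 CPM in cultured libraries (log2 change 4.50, limma adjusted p = 6.73e-06).

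Of 9 measured splicing factors known to act beside or against the ESRP proteins, 1 rose, 3 fell and 5 did not pass. Their median log2 change was -0.30, and of all genes 29.5% rose and 18.8% fell. Rbm47, an RNA-binding regulator of splicing, rose by 2.33 on the log2 scale, to 24.8 ± 4.04 CPM in tumour libraries, against 5.42 ± 2.76 CPM in cultured libraries (SD, n = 3 each, limma adjusted p = 0.00284). Rbfox2, a factor of mesenchymal splice forms, fell by 0.72, and Srsf1 and Celf1 by 0.82 and 0.63. The count of fallen genes in this list was 1 without tumour library 3 and 1 when scaled to the carcinoma epithelial markers. Counts per gene hold no information on splice forms, so the targets of ESRP1 and ESRP2 were not analysed here.

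Of 19 corepressors and cofactors of the EMT repressors, 7 fell, 1 rose and 11 did not pass, with a median log2 change of -0.36. The shares of all genes were 18.8% lower and 29.5% higher. Ajuba, a LIM protein that binds SNAI1, stood at 54.4, 76.5 and 45.2 CPM in tumour libraries, against 413, 304 and 238 CPM in cultured libraries (log2 change -2.44, limma adjusted p = 0.000166). Its relative Wtip had 0 cultured reads and was at 2.82 ± 0.257 CPM in tumour libraries (SD, n = 3), at least 116-fold higher. Given the minimum of 61 reads, Wtip could only be higher there. Ezh2 and Dnmt1, enzymes of histone and DNA methylation, fell by 1.22 and 1.08 on the log2 scale. The count of fallen genes was 14 after centring on the median, 4 when scaled to the carcinoma epithelial markers and 4 without tumour library 1 or without tumour library 3. Of 18 genes that control the stability of the SNAI1, TWIST1 and ZEB1 proteins, 1 rose, Fbxl5, and 2 fell, Usp27x and Fbxo45, with a median of -0.07. Without tumour library 1, or without tumour library 3, 0 rose and 1 fell.

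Of 26 measured ligands, receptors and transducers of pathways linked to EMT factors, 15 rose and 2 fell, beside 29.5% and 18.8% of all genes. Their median log2 change was 1.29. Bmp2, Gas6, Wnt5a, Hgf, Fgfr1, Il6 and Pdgfrb had 0 to 19 cultured reads. As the table's minimum was 61 reads, these genes could only be higher in tumour libraries. Tgfb1, the ligand best known for inducing EMT factors, was chosen after its values were seen. It stood at 205 ± 25.2 CPM in tumour libraries and 47 ± 15.6 CPM in cultured libraries (SD, n = 3 each). Its log2 change was 2.18 (limma adjusted p = 0.000338). By the naming rule the largest changes were those of Gas6, the ligand of AXL, Fgfr1, Il6 and Wnt5a. Gas6 had 2 cultured reads and a ratio of 4730 (95% counting interval 1310 to 39100), and Wnt5a had 2 and a ratio of 1130 (312 to 9330). Fgfr1 and Il6, at 60.4 ± 6.79 and 34.4 ± 13.2 CPM in tumour libraries (SD, n = 3), had log2 changes of 9.80 and 9.48. The genes that fell were Axl, the receptor of GAS6, and Met, the receptor of HGF. Axl stood at 827 ± 53.7 CPM in tumour libraries and 1352 ± 368 CPM in cultured libraries (SD, n = 3 each), and fell by 0.68 on the log2 scale (limma adjusted p = 0.0464). The count of fallen genes was 4 after centring and 0 when scaled to the carcinoma epithelial markers or without tumour library 3, and 1 without tumour library 1, tumour library 2 or cultured library 1. Macrophage and fibroblast markers moved with this list, and their part in it was not tested.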

How the data were processed

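Per the labels' protocols, total RNA was purified on RNeasy columns and sequenced from TruSeq libraries. The submitters' processing notes name HISAT, HTSeq, limma and the mm10 build, without versions or roles. The authors deposited log2 CPM. The values have the form of limma's voom, with 0.5 reads added and library totals multiplied by factors whose product is 1. Solving this form gave whole reads, within 0.01, in 100% of values in each library, and CPM were computed from them. No gene had under 61 reads in all. At 35448588 reads or more per library, counting error is small except near 0 reads. Intervals are exact 95% ones and floors are 3 reads over a group.

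Groups were compared with limma 3.58.1 (R 4.3.3) on log2 CPM as deposited, letting the variance follow the mean level, in a two-sided test adjusted over all 13912 genes at 0.05. Count models were not run because the deposited unit is log2. Libraries are numbered 1, 2 and 3 in the order of their labels. Positions and exon lengths came from GENCODE M21 on GRCm38, the assembly of mm10, and promoters from RefSeq.

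The 10 genes and the 16 other lists were chosen with earlier results of these data known. Named were all 10 genes and, per list, up to 4 called genes with the largest change, or 8 for the target lists. Some genes of the lists are not reported here by name. Alternatives were 16 refits with other scalings, a pseudocount of 1 CPM, a filter at a mean of 1 log2 CPM, other variance models and each library left out.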

Additional observations from a re-analysis of the deposited data

How the results depend on the processing

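No paired analysis was possible because the labels give the groups no shared replicate numbers. Of 158 alternative values for the 10 genes, 141 kept their direction and side of the threshold, 17 lost the call and 0 reversed. Snai2 and Twist2 gave no value under the filter on the mean. The changes of Snai1, Zeb2, Esrp2 and Grhl2 were called under all alternatives run. Those of Snai2, Twist2 and Zeb1 were too, but these genes reached the minimum of 61 reads only with their tumour reads. Snai2 and Twist2 could thus only be higher, and their kept calls are a description. Of the 141 kept values, Snai2 and Twist2 gave 15 each and Zeb1 gave 16. With 1 CPM added, Snai2, Twist2 and Zeb1 changed by 1.302, 1.79 and 3.21, and after quantile normalization by 2.69, 3.12 and 3.26, which limits what their size can show. The cause of lost calls was not tested.

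Twist1 changed by 0.73 after centring on the median and by 0.69 after quantile normalization, neither past the threshold. Ovol1 missed the threshold when scaled to the carcinoma epithelial markers (-1.04), under the filter (-1.19, adjusted p = 0.0508, with fewer genes tested), with no variance trend (-1.19, adjusted p = 0.0553), with library quality weights (-0.95, adjusted p = 0.0505) and with voom weights (-1.20, adjusted p = 0.0602), all by limma. Leaving out one library at a time gave changes of 0.74 to 1.15 for Twist1, -1.45 to -0.83 for Esrp1 and -1.57 to -0.77 for Ovol1, and 2 to 4 fallen epithelial regulators. Snai2 over Snai1 changed by -0.069 with 1 CPM added, the opposite sign of the 5.47 reported.

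Counts of list genes differed between settings, as did those of the whole table, but not always alike. Of all genes, 2612 fell as deposited, 3833 after centring and 5513 after quantile normalization. When scaled to the carcinoma epithelial markers 1682 fell, and with plain library totals 3315. Fallen cofactors numbered 9 after quantile normalization, fewer than the 14 after centring. Centring on the median gave 3 risen EMT-linked factors, 14 fallen cofactors, 4 fallen stability regulators and 4 fallen upstream genes. Quantile normalization gave 4 fallen relatives, 6 fallen EMT-linked factors, 5 fallen epithelial factors, 4 fallen stability regulators and 4 fallen upstream genes. Scaling to the carcinoma epithelial markers gave 1 fallen splicing factor, 4 fallen cofactors, 1 fallen stability regulator and 0 fallen upstream genes. Plain library totals gave 11 fallen cofactors and 4 fallen stability regulators. The filter left 1 fallen relative and 0 risen cofactors, no variance trend 1 fallen upstream gene, and quality weights 5 fallen EMT-linked factors and 11 fallen cofactors. Leaving out one library gave 1 to 3 fallen relatives, 3 to 7 risen EMT-linked factors, 1 to 3 fallen splicing factors, 4 to 10 fallen cofactors, 0 to 2 risen and 1 to 3 fallen stability regulators and 0 to 3 fallen upstream genes.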

Other observations

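The genes whose profile over the 6 libraries was most like each of the 10 were found by the root-mean-square difference of log2 values after each gene was centred on its own mean, a description with no test. Snai1 was closest to Tnik (0.167) and Gpr162 (0.198), Twist1 to Nr2f1 (0.113) and Tmem98 (0.163), and Zeb2 to Alpk1 (0.146) and Bach1 (0.182). Zeb1 was closest to Bdh1 (0.136) and Glipr1 (0.141). Snai2 was closest to Tnfrsf13b (0.0219) and Chst10 (0.0703), which also had a cultured mean of -6.35 log2 CPM, the value of 0 reads, and Twist2 to Slc2a10 (0.207) and B3galt5 (0.306). Esrp1 was closest to Myo6 (0.104) and Sema3e (0.109), Esrp2 to Nanos1 (0.165) and Ckap2l (0.171), Grhl2 to Xpo7 (0.0376) and Chtf8 (0.0499), and Ovol1 to Jph4 (0.154) and Zfp473 (0.19).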
